A study of Mus musculus with 13 samples.

Results

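The ribosomal proteins of the cytosol and of the mitochondrion were followed at the transcript level in mouse keratinocytes over a 4 h time course. A gene was included if a probe set that named only that gene carried a symbol of the ribosomal protein families (Rpl, Rps, Mrpl or Mrps with a number, Rplp, or Rpsa). S6 kinases and pseudogenes were left out, and each gene was read from its brightest probe set. This gave 122 of the 12394 genes on the array, 48 of them cytosolic and 74 mitochondrial. The cells were primary keratinocytes that all carried a retroviral fusion of the DNp63alpha isoform with an estrogen receptor domain (ERDNp63a), a transcription factor fusion that tamoxifen activates. One group was untreated, and each of the other 12 was collected at a different time after tamoxifen, every 20 min from 20 to 240 min. Each group was 1 Affymetrix array, so no time had a replicate, and the labels do not state if each array was a culture of its own. Strain, age and the number of animals are not given in the sources used here, the retroviral promoter that drives the fusion is not named, and cells without the fusion or with tamoxifen solvent alone were not analysed here.

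A eukaryotic cell runs separate translation systems in the cytosol and in the mitochondrion. The cytosolic ribosome makes nearly all cellular protein, and its protein genes are among the most actively transcribed genes of a dividing cell. Their mRNAs begin with a C followed by a run of pyrimidines, a feature through which mTOR signalling controls their translation. The mitochondrial ribosome makes only the few respiratory chain subunits encoded by mitochondrial DNA, while all its own proteins are encoded in the nucleus, made in the cytosol and imported.

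The start regions of the members are shown first, because the pyrimidine run that marks cytosolic ribosomal protein mRNAs lies there. A promoter table of RefSeq (assembly GRCm38.p6) held a window from 250 bases before to 50 bases after the start for 107 of the 122 members, and exactly 1 such window for 35 cytosolic and 62 mitochondrial members. The lines below show 30 bases each, 12 before the annotated start and 18 from it on, and capitals mark a C followed by at least 4 pyrimidines that begins within 5 bases of the start. The first 4 are cytosolic members described below, at chr4:86857350-86857379 and chr17:33955648-33955677 on the minus strand and at chr9:120571505-120571534 and chr2:26910795-26910824 on the plus strand. Rplp0 (chr5:115559455-115559484, plus strand) is a cytosolic member without a run that begins within 5 bases of the start. Mrpl18 (chr17:12916074-12916103, minus strand) is the mitochondrial member with the largest rise.
Rps6: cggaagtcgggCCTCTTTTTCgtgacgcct
Rps18: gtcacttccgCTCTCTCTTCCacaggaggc
Rpl14: cgggccctCTCTCTTCTCgctgagcgccgc
Rpl7a: ccctcttCTTTCTTTCTCCagcagccgagc
Rplp0: ttcgggtttcgaggaccgcctggttctcct
Mrpl18: gtagctttacccacagttaacatggctgcg

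A C at the first transcribed base followed by at least 4 pyrimidines stood in 8 of 35 cytosolic windows (22.9%) and in 0 of 62 mitochondrial windows. Among the 4794 tested genes with 1 window the share was 2.52%, and among all 32851 windows of the table it was 2.51%. Within 5 bases on either side of the annotated start, the run was present in 17 cytosolic windows (48.6%), 14 mitochondrial windows (22.6%), 20.3% of tested genes and 18.3% of all windows. The search used the transcript strand only and depends on the annotated start.

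Both sets held many matches to CCGGAA, the core bound by ETS family factors such as GABP, searched on both strands. It stood in 24 of 35 cytosolic windows (68.6%) and in 34 of 62 mitochondrial windows (54.8%), against 32.1% of tested genes and 14.9% of all windows. The 100 bases before the start are shown for 4 mitochondrial members that changed over the course and hold a match there, with each match or its reverse complement in capitals. They lie at chr17:12916092-12916191 (minus strand), chr8:71464826-71464925 (plus), chr4:126046828-126046927 (plus) and chr4:49521084-49521183 (minus).
Mrpl18: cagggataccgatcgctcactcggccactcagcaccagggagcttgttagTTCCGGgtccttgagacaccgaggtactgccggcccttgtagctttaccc
Mrpl34: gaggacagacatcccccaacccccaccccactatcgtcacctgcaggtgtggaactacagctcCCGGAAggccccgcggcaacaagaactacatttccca
Mrps15: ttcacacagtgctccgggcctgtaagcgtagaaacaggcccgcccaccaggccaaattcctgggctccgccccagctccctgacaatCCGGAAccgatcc
Mrpl50: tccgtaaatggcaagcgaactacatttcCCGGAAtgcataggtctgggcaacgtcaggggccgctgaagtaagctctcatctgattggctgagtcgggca

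Mrpl18, Mrpl34 and Mrps15 rose and Mrpl50 fell. Mrps24 and Mrpl41, which also rose, hold no match in their windows. Of the mitochondrial members that rose, 15 of 28 with a window held it, and of the other mitochondrial members 19 of 34. Matches to AAGATGG (YY1) stood in 17.1% of cytosolic, 19.4% of mitochondrial and 8.68% of tested windows. GCATGCG (NRF1) stood in 8.57%, 12.9% and 7.45%, CACGTG (the E-box that MYC binds) in 5.71%, 6.45% and 11.0%, and GGGCGG (SP1) in 57.1%, 50% and 68.9% of the same groups. These motifs were searched on both strands, no motif contains another, and a match is a description of the sequence only.

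Intensities are linear values, 1 per probe set and array, and were analysed as log2(intensity + 16), a scale that understates the change of dim genes. Array medians lay between 237 and 252 and the highest intensity on each array between 18969 and 19676, and rank correlations between arrays were 0.983 to 0.997. Keratinocyte identity was checked with 10 markers: Krt14 was the brightest of the 12394 genes, the median marker lay at the 96.6th percentile of mean level, and Krt15 alone lay below the level used for testing. Summed intensities were 58774 to 61550 for the keratinocyte markers up to 60 min and 60006 to 62187 later. Markers of other cells were also read: the 5 melanocyte markers summed to 6053 to 6956 up to 60 min and 5704 to 6363 later, 6 fibroblast markers to 986 to 1034 and 930.1 to 1053, and 5 immune markers to 888 to 995 and 855 to 1049. The melanocyte markers ran from the 58.4th percentile (Tyr) to the 93.1st (Dct, a melanin synthesis enzyme). The immune markers ran from the 1.18th (Ptprc, which marks leukocytes) to the 63.9th (Csf1r), with a median at the 20.0th. The part of other cells in the results was not tested, and in such cultures fewer cells of a type and less RNA per cell cannot be told apart.

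Over the 4 h the mitochondrial set moved upward in intensity, and the cytosolic set, read mostly from probe sets near the top of the array's range, changed little. A straight line of time over the 13 arrays, fitted with limma across 7436 genes above a log2 level of 7.83, called 36 of 74 mitochondrial members as risers and 2 as fallers at an adjusted p below 0.05. Called in either direction were 38 mitochondrial members, where 39.9% of all tested genes were called. The background was 22.3% of all tested genes rising and 17.6% falling, against 48.6% and 2.70% of the mitochondrial members. Of the 48 cytosolic members, 45 passed the level filter (Rpl39, Rpl39l and Rpl3l did not), and 6 of them (13.3%) rose and 0 fell. At an unadjusted p below 0.05 the same limma fit had 8 cytosolic members rising and 0 falling, with 27.4% and 22.1% of all genes beside them. These p-values measure only the spread of single arrays about a line, which may be technical.

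The sizes differed between the sets as well. The median fitted change over the 4 h was 0.17 on the log2 scale for the mitochondrial members, 0.026 for the cytosolic members and 0.019 for all genes tested. Regardless of sign the medians were 0.20, 0.036 and 0.16. The slope was positive for 65 of 74 mitochondrial members and for 33 of 45 cytosolic members, against 53.5% of all genes tested. By size, 24 mitochondrial members rose by more than 1.2-fold and 2 fell by as much, with 13.3% and 13.9% of all genes beside them, while 2 cytosolic members rose by more than 1.2-fold.

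**Figure D1:**
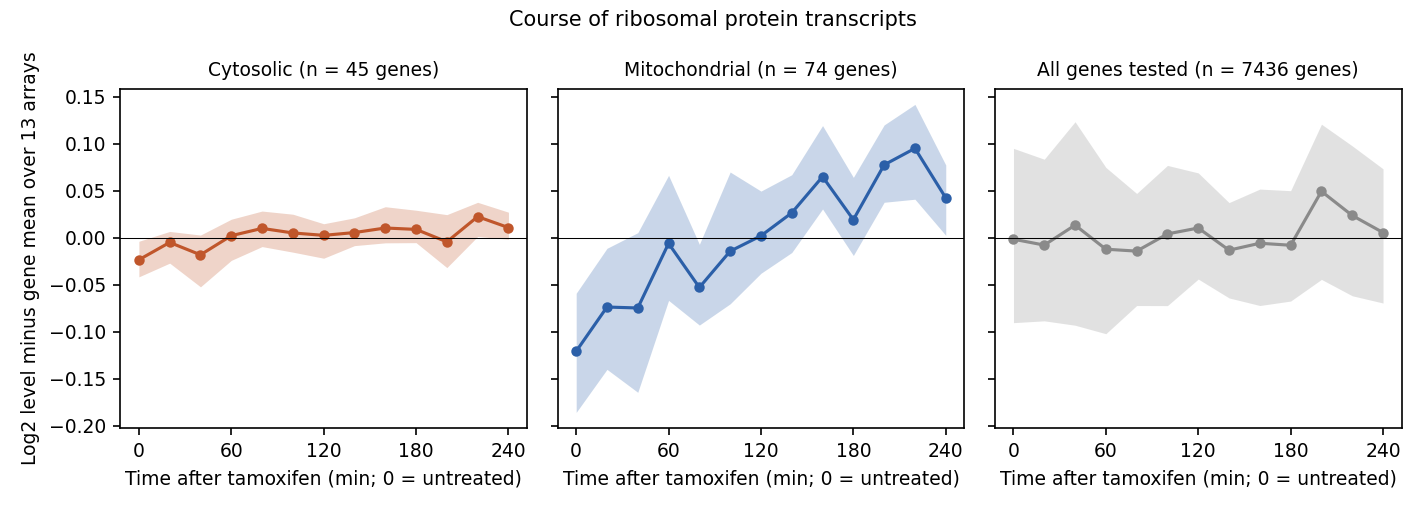
Median deviation of the members from their own mean over 13 arrays (log2 scale, vertical axis) against time after tamoxifen in min (0 is the untreated array), for 45 cytosolic members, 74 mitochondrial members and all 7436 genes tested; bands span the lower to the upper quartile of the genes. The mitochondrial median goes from -0.12 in the untreated array to 0.095 at 220 min, while the cytosolic median stays between -0.024 and 0.022.

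Array by array, the median deviation of the mitochondrial members from their own means was -0.12 in the untreated array, -0.074 at 20 min, -0.075 at 40 min and -0.0061 at 60 min. It was -0.053 at 80 min, lay between -0.014 and 0.026 from 100 to 140 min, and then between 0.019 and 0.095 from 160 to 240 min. The untreated array and those at 20, 40 and 80 min were the low ones, and the array at 220 min was the highest. In the untreated array 9 of 74 mitochondrial members lay above their own mean, and at 220 min 66 did. The shares of all genes tested were 49.5% and 58.1%.

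The cytosolic medians covered a much narrower range, from -0.024 in the untreated array to 0.022 at 220 min, with all genes tested between -0.014 and 0.049. The cytosolic median minus the mitochondrial median fell from 0.097 in the untreated array to -0.082 at 200 min. It crossed 0 after 120 min, where it was 0.00047. The median over all genes was itself highest at 200 and 220 min, at 0.049 and 0.024, and without those arrays 30 mitochondrial and 5 cytosolic members were called as risers, with 17.5% of all genes beside them.

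Most slopes of the mitochondrial members were positive in each stretch of the course when the arrays up to 60 min and those from 80 min on were fitted apart. From 0 to 60 min (4 arrays) 67 of 74 had a positive slope, against 49.8% of all genes. The median was 0.12 log2 units per hour against -0.00045 for all genes. From 80 to 240 min (9 arrays) 63 of 74 had a positive slope, against 58.6% of all genes. The median was 0.044 per hour against 0.011 for all genes. The cytosolic medians were 0.013 and 8.3e-05 per hour, and 32 (71.1%) and 23 (51.1%) of 45 slopes were positive. The slope up to 60 min rests on 4 arrays, and the last of these stands apart: its 18S rRNA 3' control read 959, against 346 to 552 in the other 12 arrays, and the mitochondrial median was higher there than at 40 or 80 min. From 0 to 40 min (3 arrays) the mitochondrial median slope was 0.078 per hour and 54 of 74 were positive, against 0.019 and 55.7% of all genes and -0.0052 and 21 of 45 for the cytosolic members. The part of the 60 min array in the early slope was not tested further.

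Inside these shorter stretches 0 members of either set passed limma's adjusted threshold, and among all 7436 genes 1 rose and 4 fell from 80 to 240 min and 0 changed from 0 to 60 min. At an unadjusted p below 0.05, 23 mitochondrial members rose and 1 fell from 80 to 240 min, where 11.5% and 6.83% of all genes did, and 6 rose and 0 fell up to 60 min (2.85% and 6.83%). With a line and the step in 1 fit, 33 mitochondrial members rose along the line and 1 fell at an unadjusted p below 0.05 (15.3% and 9.53% of all genes), and 0 passed the adjusted threshold. For the cytosolic members the counts were 4 and 4 in that fit, 3 and 3 from 80 to 240 min, and 0 and 1 up to 60 min.

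Set against the break between 60 and 80 min, a position chosen with earlier results of these arrays known, the sets again differed. In a limma fit of the 9 later against the 4 earlier arrays, 33 mitochondrial members were higher later and 7 were lower, with 21.7% and 20.1% of all genes beside them (41.7% in either direction). The cytosolic counts were 10 higher (22.2%, close to the background) and 1 lower. All 9 later arrays lay above all 4 earlier ones for 14 mitochondrial and 5 cytosolic members (11.7% of all genes), and all lay below for 3 and 0 (11% of all genes). Of the 36 mitochondrial risers, 28 also passed the step test, an overlap that was not counted over all genes. A natural cubic spline of time was called for 27 mitochondrial and 3 cytosolic members, 36.5% and 6.67% against 24.9% of all genes. Every one of these 30 had also passed the straight line, but so had nearly all genes called by the spline: 39 of 1850 had not.

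Over the 13 arrays the median Pearson correlation was 0.44 among the 2701 mitochondrial pairs, 0.11 among the 990 cytosolic pairs, 0.18 between the sets and 0.024 among all genes. These pairs share the same arrays and scaling, and the values are a description.

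Among the mitochondrial members that rose, Mrpl18, a protein of the central protuberance of the large subunit, had the largest slope. Its intensities were 885, 845, 814 and 1027 in the arrays from untreated to 60 min, and ran from 1063 through a median of 1215 to 1320.3 in the 9 later arrays. Every later array lay above every earlier one, with the array at 60 min the closest. The fitted change was 0.67 ± 0.092 (SE) on the log2 scale, as are all changes and steps given below with their SE, or 1.59-fold, with an adjusted p of 0.000159.

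Mrps24, a protein of the small subunit, gave 805, 845, 789 and 896 up to 60 min, and 956, 1064 and 1172 as the lowest, median and highest later values. The groups did not overlap, and the change was 0.53 ± 0.077 (1.44-fold, adjusted p = 0.000194). Mrps28, also of the small subunit, had the smallest p of the set, with 790.2, 844, 832 and 907 in the first 4 arrays and 944 to 1118 (median 1047) later. Its later arrays likewise all lay above the earlier ones, and it rose by 0.47 ± 0.062 (1.39-fold, adjusted p = 0.000131).

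Mrpl41, a large subunit protein without a bacterial counterpart that is also known to bind BCL2, gave 1065, 1051, 1161 and 1098 up to 60 min, and 1224, 1363 and 1457 as lowest, median and highest later values. Its highest earlier array was the one at 40 min, still below every later array. It rose by 0.45 ± 0.073 (1.37-fold, adjusted p = 0.000357). Mrpl34, the counterpart of bacterial L34, was level in the first 3 arrays, at 780.2, 772 and 778, reached 826 at 60 min and 934 at 80 min, and then stayed between 952 and 1091. Its step of 0.34 ± 0.044 had the smallest step p of the set (adjusted p = 2.70e-05), and its linear change was 0.44 ± 0.093 (adjusted p = 0.00199).

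Mrps15, the counterpart of the rRNA-binding bacterial protein S15, gave 808, 846, 846 and 913 up to 60 min and 945 to 1118 (median 1044) later. No later array fell into the earlier range, and the change was 0.40 ± 0.069 (1.32-fold, adjusted p = 0.000583). These 6 members kept their linear calls when any 1 array was left out. The other 30 risers had changes between 0.15 (Mrpl45) and 0.39 (Mrpl42). They included Mrps11 (0.32 ± 0.074, adjusted p = 0.00340), the dimmest mitochondrial member tested, whose values went from 441 in the untreated array to 587 at 200 min.

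**Figure D2:**
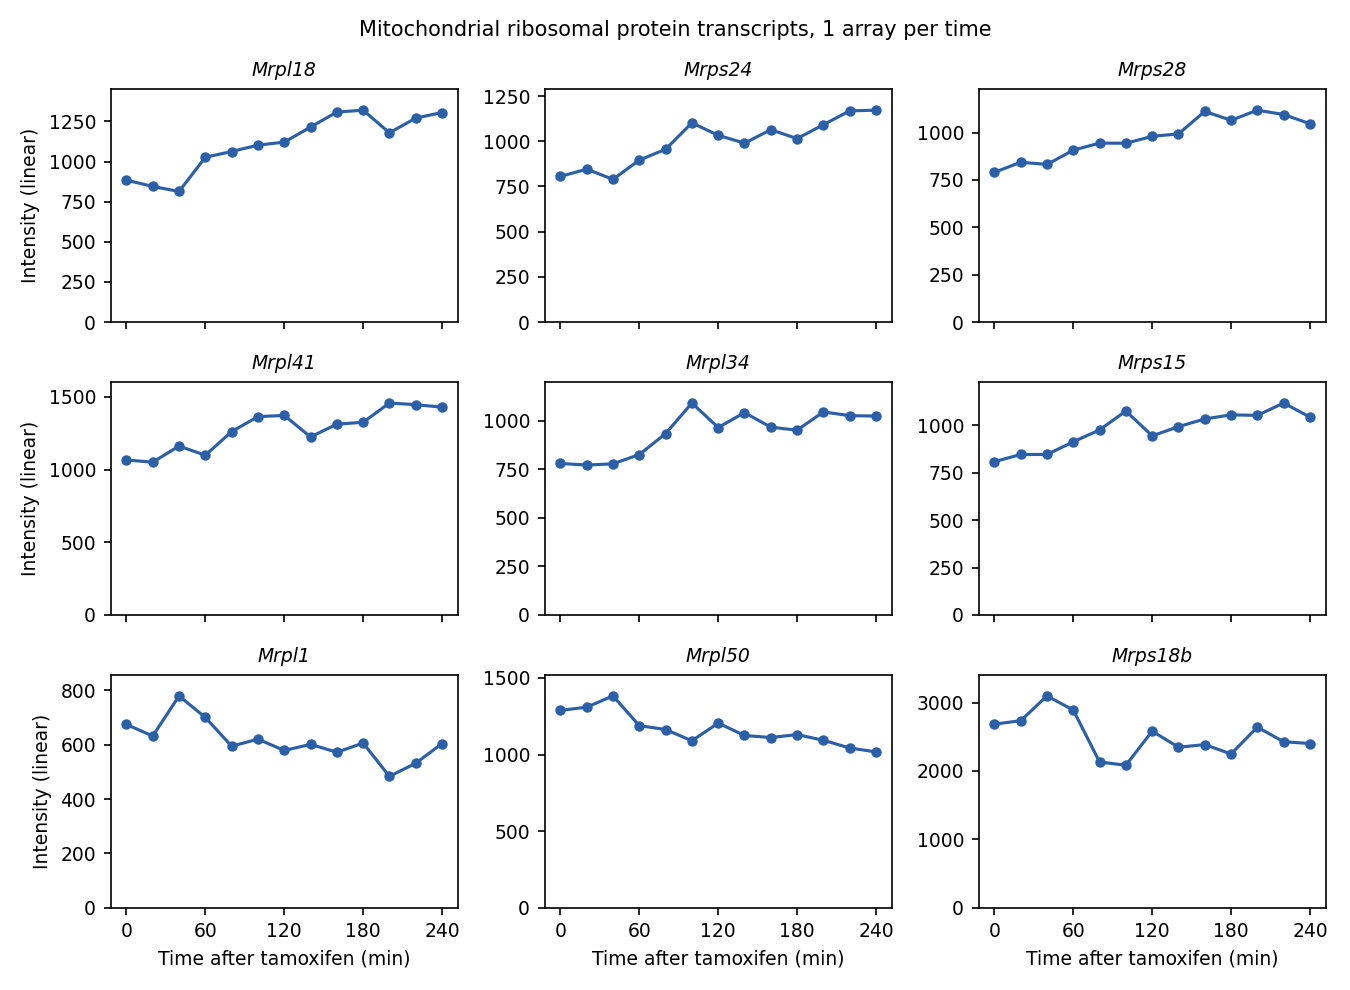
Intensity (linear scale from 0, vertical axes) against time after tamoxifen in min for 9 mitochondrial ribosomal protein genes, 1 array per point. Mrpl18 goes from 885 in the untreated array to 1306 at 240 min, while Mrps18b drops from 2891 at 60 min to 2131 at 80 min.

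The 2 members that fell were both large subunit genes. Mrpl50, a mitochondrial protein without a bacterial counterpart, gave 1288, 1309, 1383 and 1189 up to 60 min, and 1018, 1111 and 1206 as lowest, median and highest later values. The ranges overlapped, since the array at 60 min lay below the one at 120 min. It fell by 1.27-fold, a change of -0.35 ± 0.064 (adjusted p = 0.000824), and its second probe set also had a negative slope, -0.10 per hour.

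Mrpl1, the counterpart of the bacterial L1 stalk protein, gave 675, 632, 779.7 and 700.4 up to 60 min and 484 to 621 (median 595) later, with the lowest value at 200 min and no overlap. It fell by 1.29-fold, a change of -0.37 ± 0.10 (adjusted p = 0.0104). Its other probe sets, which were dimmer, had slopes of 0.013 and -0.018 per hour, and the call was lost when all probe sets were averaged and when the arrays at 200 and 220 min were left out.

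Mrps18b, one of 3 mitochondrial relatives of bacterial S18, had the largest downward step. It gave 2685, 2735, 3097 and 2891 up to 60 min and dropped to 2131 and 2084 at 80 and 100 min, and then lay between 2249 and 2641. All later arrays were below all earlier ones. The step was -0.27 ± 0.060 (adjusted p = 0.00202), and the straight line gave an adjusted p of 0.177. Its relatives Mrps18a and Mrps18c had linear changes of 0.12 and 0.10 (adjusted p = 0.191 and 0.296).

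The other mitochondrial members that were lower from 80 min on were Mrpl35, Mrpl38, Mrpl47 and Mrpl9, with steps of -0.10, -0.14, -0.14 and -0.14. All 7 downward steps but that of Mrps18b were in genes named for the large subunit. Divided by name, 24 of 47 large subunit members rose and 2 fell, and 12 of 27 small subunit members rose and 0 fell. Among all genes tested 22.3% rose and 17.6% fell. Mrps30 and Mrps18a carry small subunit names but are known to sit in the large subunit, and neither was called.

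Mrpl12, Mrps12 and Mrps30, which were named from a fixed list, did not pass the linear test, while Mrpl41 of that list rose. Mrpl12, which forms the stalk that recruits translation factors, changed by 0.14 ± 0.057 in the fit (adjusted p = 0.0635), and Mrps12, of the decoding centre, by 0.12 ± 0.060 (adjusted p = 0.130). Mrps30 gave 0.037 ± 0.070 (adjusted p = 0.700). The 3 brightest members, Mrpl33, Mrpl15 and Mrps14, had adjusted p-values of 0.151, 0.643 and 0.240.

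Mitochondrial members with low and with high numbers in their names were both among the risers, a grouping made after the values had been seen. Of 42 members with low numbers (up to 36 in the large and up to 21 in the small subunit), 18 rose and 1 fell. Of the 32 with higher numbers, 18 rose and 1 fell. Beside both groups, 22.3% of all genes tested rose and 17.6% fell. Low numbers stand mostly for proteins with a bacterial counterpart, but the number does not settle this for each member. The members also include genes with further roles. Mrpl58, a peptidyl-tRNA hydrolase built into the large subunit, rose by 0.32 ± 0.079 (adjusted p = 0.00539). Mrps36, which is now assigned to the 2-oxoglutarate dehydrogenase complex, rose by 0.32 ± 0.088 (adjusted p = 0.00878).

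**Figure D3:**
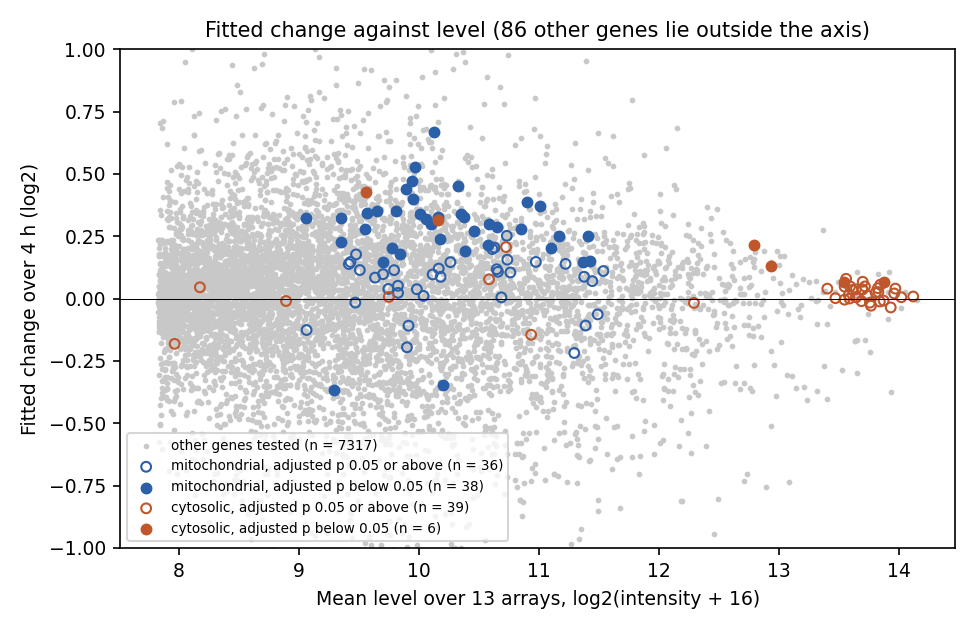
Fitted change over 4 h (log2, vertical axis) against mean level over 13 arrays (log2(intensity + 16), horizontal axis) for 74 mitochondrial members, 45 cytosolic members and 7317 other genes; filled symbols have an adjusted p below 0.05 and 86 other genes lie beyond the vertical axis. Most cytosolic members form a tight group at a level above 13 near 0, while the mitochondrial members lie between 9.06 and 11.54 and mostly above 0.

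The cytosolic members were mostly among the brightest genes of the array, with a median mean level of 13.64 on the log2 scale, at the 99.7th percentile of genes. The mitochondrial members had a median of 10.16, at the 83.2nd percentile. Intensities of different probe sets are not amounts of RNA, so these levels place the members on the array's scale only. Scatter about the fitted line was smaller for the cytosolic members, with a median residual SD of 0.027 against 0.068 for mitochondrial members and 0.087 for all genes.

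Of the 33 cytosolic members at a level of 13 or more, 2 rose and 0 fell, the median change regardless of sign was 0.029, and the largest was 0.079. The 58 other genes at that level included 11 that rose and 20 that fell, with a median of 0.077 regardless of sign. The 12 cytosolic members below 13 included the other 4 risers (33.3%, with 22.3% of all genes tested). In the level range of the mitochondrial members, 23.4% of 3607 other genes rose and 21.5% fell. The split at 13 was chosen after the values had been seen.

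Dimmer probe sets of cytosolic members had a larger median change than bright ones, a difference that was not tested. Among probe sets that named 1 gene, 10 of 59 cytosolic ones at a level of 13 or more rose (16.9%, with 13.4% of all probe sets at that level), and the median change was 0.034. These 59 read 33 genes, and the risers read only Rpl35, Rps10, Rpl7a and Rps19. Of the 23 below 13, 10 rose (43.5%, with 21.1% of all probe sets below 13), and the median change was 0.13. These 23 read 17 genes, and the risers read Rpl13a, Rpl14, Rpl22, Rpl27, Rps20, Rps27l and Rps6. Probe sets of the same gene do not count as separate genes. For 5 genes probe sets lay on both sides of 13, and in 4 of them the dimmer ones had the larger mean change: 0.30 against 0.034 for Rpl13a, 0.15 against -0.0045 for Rpl27, 0.093 against 0.021 for Rpl37a and 0.46 against 0.096 for Rps20. The exception was Rpl7, with -0.019 against 0.022. Whether probe sets near the top of the range respond in proportion to RNA was not tested, so the cytosolic counts and sizes given here hold for the probe sets that were read.

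Genes often used as references for other transcripts were among these bright members. Rplp0, a protein of the ribosomal stalk, gave 15844, 15472, 15677 and 16138 up to 60 min and 15806 to 16513 (median 16182) later, and its change of 0.040 ± 0.024 did not pass (adjusted p = 0.200). Rpl13a stayed between 15634 and 16371 over all 13 arrays, with a change of 0.020 ± 0.021 (adjusted p = 0.453). The earlier and later arrays overlapped for both genes. A dimmer probe set of Rpl13a, at a level of 12.02, rose at 0.076 per hour in limma's fit of single probe sets (adjusted p = 0.0031), with a step of 0.24, and Rpl13a was called as a riser when its probe sets were averaged, with or without those ending in _x_at or _s_at.

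Rps18, another reference gene, had no overlap: it gave 13210.2, 13229, 13017 and 12999 up to 60 min and 13416, 13609.6 and 13908 as lowest, median and highest later values. The step of 0.053 ± 0.012 on the log2 scale passed the test (adjusted p = 0.00300), while the line did not (adjusted p = 0.127). Rps24, also of the small subunit, was similar, with 13046, 12713, 12582 and 12634 up to 60 min and 13189 to 13947 later, and a step of 0.086 ± 0.018 (adjusted p = 0.00122).

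The brightest members changed little in the fit of their brightest probe sets. Rpl37a stayed between 17606 and 17981, a change of 0.0082 ± 0.015 (adjusted p = 0.692), and Rpl41 between 16342 and 16862 (adjusted p = 0.845). Rps3 and Rpsa, small subunit proteins that also act outside the ribosome, had adjusted p-values of 0.103 and 0.418, and Rpl11, which binds MDM2 when ribosome assembly is disturbed, of 0.0909. None of these 5 passed the linear or the step test.

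The largest cytosolic rise was that of Rpl14, a large subunit protein read here by a dim probe set. Its intensities were 556, 682, 641 and 694 up to 60 min, and ran from 732 through a median of 782 to 892 later, with the untreated array lowest and the array at 220 min highest. No array overlapped across the break, and the change was 0.43 ± 0.088 (1.34-fold, adjusted p = 0.00164).

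Rps6, the small subunit protein that S6 kinases phosphorylate, was also read by a probe set in the level range of the mitochondrial members. Its values were 967, 1018, 1034 and 1080.1 up to 60 min and 1039 to 1293 (median 1164) later, and the arrays at 60 and 100 min overlapped. Rps6 rose by 0.32 ± 0.068 (1.24-fold, adjusted p = 0.00216). Rpl14 and Rps6 kept the linear call when any 1 array was left out.

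Rps27l, a relative of Rps27 and a known target of p53, gave 6309, 6702, 6547 and 6716 up to 60 min, and 7036, 7319 and 7674 as lowest, median and highest later values. All later arrays lay above all earlier ones, and the change was 0.22 ± 0.043 (1.16-fold, adjusted p = 0.00127). Its 3 probe sets had slopes of 0.068, 0.069 and 0.054 per hour. Rps27 itself was read by a dim probe set at 263 to 287 and changed by 0.045 ± 0.049 in the fit (adjusted p = 0.486).

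Rpl22, a large subunit protein with a closely related copy, Rpl22l1, gave 7319, 7887, 7192 and 7625 up to 60 min and 7662 to 8149 (median 7998) later, with overlap. It rose by 0.13 ± 0.036 (adjusted p = 0.0103), a call that was lost with median centring of the arrays. Rpl22l1 lay between 4205 and 5326 and had a change of -0.018 ± 0.075 (adjusted p = 0.875). The difference between the copies was not tested.

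The remaining risers, Rpl7a and Rps19, changed by little. Rpl7a, of the large subunit, gave 14484, 15008, 14912 and 15133 up to 60 min and 14589.7 to 15426 later, and rose by 0.067 ± 0.022 (adjusted p = 0.0239). Rps19, a small subunit protein mutated in Diamond-Blackfan anaemia, gave 11564, 11823, 11476 and 11711 and then 11853 to 12229.6, and rose by 0.067 ± 0.021 (adjusted p = 0.0219). Both calls were lost in 5 other settings: without a filter on dim genes, with median centring or quantile normalization of the arrays, without the intensity trend, and without the arrays at 200 and 220 min. The call of Rpl7a was also lost without the untreated array or the one at 240 min, and that of Rps19 without the untreated array or the one at 40, 220 or 240 min.

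Among cytosolic members called by the step alone, Rpl37 had the largest step, 0.26 ± 0.074 (adjusted p = 0.0119). It gave 1586, 1644, 1303 and 1422 up to 60 min and 1489 to 1959.8 later, and its low values were at 40, 60 and 200 min. In their brightest probe sets Rps20 and Rpl35 also had upward steps, 0.067 ± 0.023 and 0.048 ± 0.015 (adjusted p = 0.0271 and 0.0191). The other probe sets of Rps20, all dimmer, had steps of 0.12, 0.48 and 0.44. The other tested probe sets of Rpl35 rose by the line in limma's fit of single probe sets (adjusted p = 0.00288 to 0.0408). Rpl7l1, named after Rpl7 but known as a factor of ribosome assembly, was the only 1 of 45 tested cytosolic members that was lower from 80 min on. It gave 1964, 2128, 2222 and 2238 up to 60 min and 1537 to 2089 later, with the lowest value at 100 min, and its step was -0.20 ± 0.063 (adjusted p = 0.0201). Rpl7 itself had a change of 0.0016 ± 0.028 (adjusted p = 0.969).

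**Figure D4:**
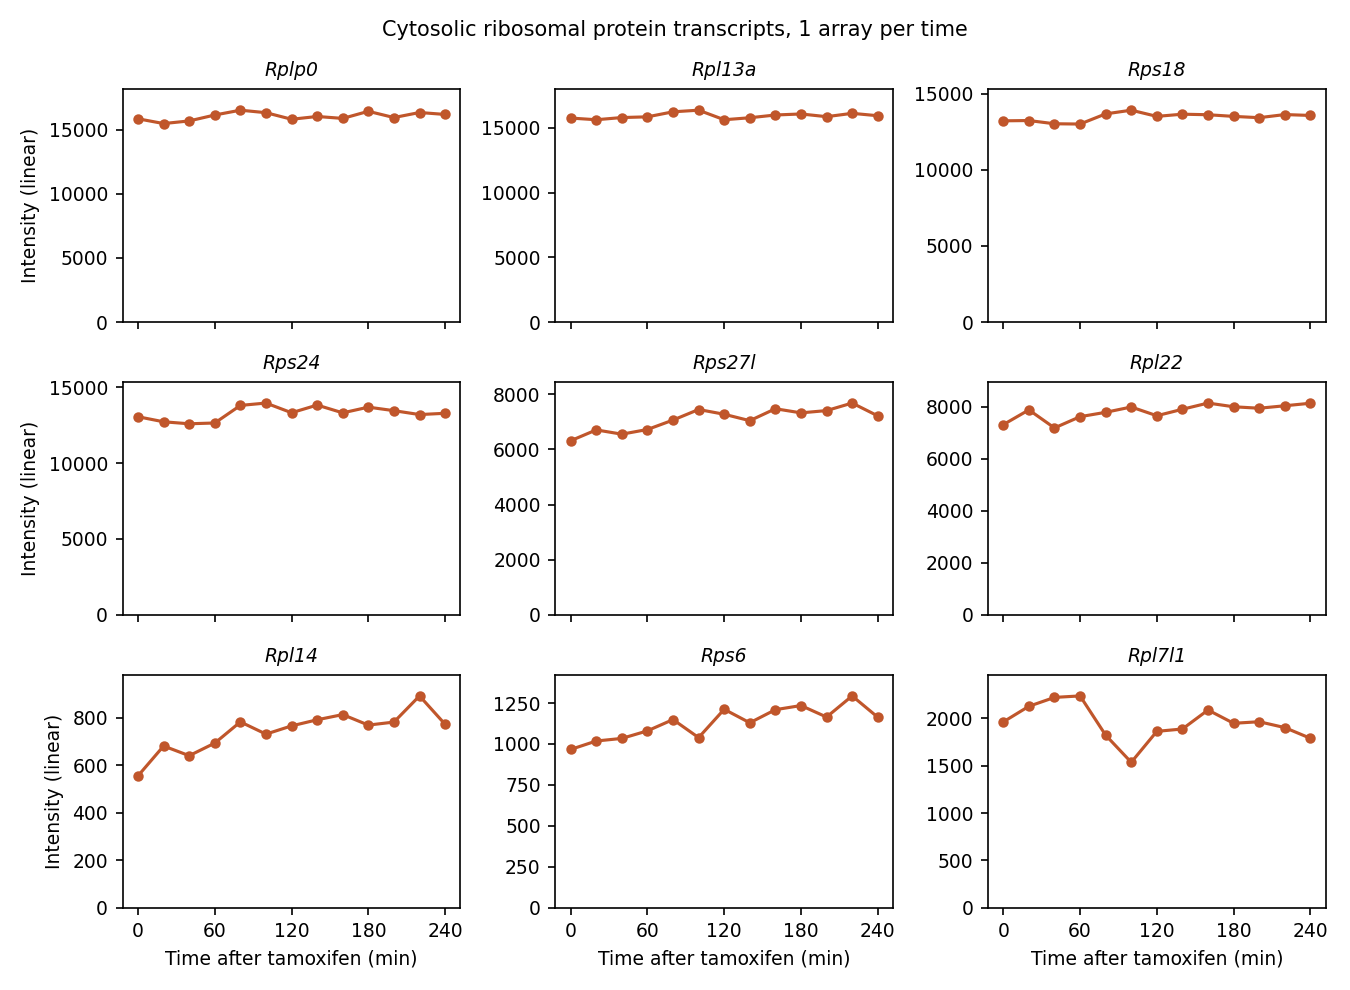
Intensity (linear scale from 0, vertical axes) against time after tamoxifen in min for 9 cytosolic members, 1 array per point. Rplp0 and Rpl13a vary within 15472 to 16513 and 15634 to 16371, whereas Rpl14 goes from 556 in the untreated array to 773 at 240 min.

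Other related copies showed no call. Rps4x and Rps4l changed by 0.0063 ± 0.025 and 0.0064 ± 0.073 in the fit (adjusted p = 0.860 and 0.953). Rpl39 and Rpl39l were too dim to be tested, at 124 to 157 and 169.8 to 224, as was Rpl3l. The dimmest tested members, Rpl12, Rps27 and Rpl27a, had adjusted p-values of 0.304, 0.486 and 0.958.

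Many cytosolic ribosomal protein genes have processed copies in the genome, and probe sets can read several of them. The array held 102 probe sets that listed a cytosolic ribosomal protein together with other genes, and 30 ribosomal protein genes were read only in this way, so the 48 are not the whole cytosolic set. Fitted one by one among 12401 probe sets, 9 of the 91 bright enough to test rose and 0 fell, with 20.9% and 16.5% of all probe sets beside them. Of the 82 tested probe sets that named 1 cytosolic member, 20 rose and 0 fell, and of 107 that named 1 mitochondrial member, 54 rose and 3 fell. Several probe sets can read the same gene, so these are not counts of genes. Among genes with several bright probe sets, the slopes had the same sign in 11 of 18 cytosolic and 20 of 22 mitochondrial members.

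Other parts of the translation machinery moved in both directions. Of 40 cytosolic translation factors, 6 rose (15.0%) and 11 fell (27.5%), against 22.3% and 17.6% of all genes. The falls were larger: Etf1, the release factor, fell by 1.54-fold (change -0.63, adjusted p = 0.000653), Eif5b, which joins the subunits, by 1.53-fold (adjusted p = 0.0136) and Eif4a2, an RNA helicase of initiation, by 1.49-fold (adjusted p = 0.00285). The largest rises were those of the initiation factor 3 subunits Eif3l, Eif3k and Eif3f, by 1.13-, 1.11- and 1.11-fold (adjusted p = 0.00116, 0.00675 and 0.00250). Other subunits of that factor fell, Eif3a by 1.42-fold and Eif3d by 1.15-fold (adjusted p = 0.00702 and 0.0412). The call of Eif3l was lost when all its probe sets were averaged, and that of Eif3k without the arrays at 200 and 220 min. The median slope of this list was -0.0046 per hour, against 0.0048 for all genes.

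Of 27 genes for mitochondrial translation and ribosome assembly, 6 rose (22.2%, close to the 22.3% of all genes) and 1 fell, with a median slope of 0.0088 per hour. Pdf, the mitochondrial peptide deformylase, rose by 1.42-fold (adjusted p = 0.000224), Mtfmt, which formylates the initiator tRNA, by 1.23-fold (adjusted p = 0.000782), and Letm1, an inner membrane protein, by 1.21-fold (adjusted p = 0.0137). The Letm1 call was lost when its probe sets were averaged and without the arrays at 200 and 220 min. Mterf3 fell by 1.16-fold (adjusted p = 0.0420), a call that was lost in 8 of 13 omissions of 1 array: the untreated one and those at 20, 40, 60, 160, 200, 220 and 240 min. Of 5 ribosomal proteins under other names, Dap3, a GTP-binding protein of the mitochondrial small subunit, rose by 1.18-fold (adjusted p = 0.00455) and the other 4 were not called.

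Of 20 tested regulators of ribosomal protein genes and mRNAs, 5 rose and 5 fell by the line (22.3% and 17.6% of all genes), and 5 were higher and 8 lower after the break (21.7% and 20.1%). Myc, which activates ribosome genes, fell by 1.45-fold (adjusted p = 0.000459). Pprc1, a coactivator of mitochondrial genes, and Gabpb1, the partner of the ETS factor Gabpa, each fell by 1.37-fold (adjusted p = 0.0104 and 0.00227). Ddit4l, an inhibitor of mTOR signalling, rose by 2.51-fold (adjusted p = 0.000119), Eif4ebp2, which represses cap-dependent initiation, by 1.23-fold (adjusted p = 0.00157) and the nuclear receptor Esrra by 1.23-fold (adjusted p = 0.0335). The Esrra call was lost without the array at 20, 40, 200 or 220 min. Eif4ebp1, a relative of Eif4ebp2, went the other way. It fell in the linear fit, with a change of -0.263 (adjusted p = 0.0208), and its step was -0.226 (adjusted p = 0.00068).

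Of the RNA quality controls, that of Gapdh differed little between the sides of the break, and that of Actb reached higher values later. The ratio of the 3' to the 5' control probe set of Gapdh was 0.907 to 0.930 up to 60 min and 0.899 to 0.937 later, and that of Actb was 1.16 to 1.21 and 1.17 to 1.27. The arrays at 80 and 100 min had the highest Actb ratios, and the part of this in the results was not tested. With the Gapdh ratio as a covariate, 37 mitochondrial and 7 cytosolic members rose, with 22.5% of all genes.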

How the data were processed

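The authors deposited linear intensities of 22690 probe sets, 1 value in each array. No source used here states how probes were summarised and arrays scaled. The medians of the arrays were close, so a change shared by most genes would not be seen. Per the labels' protocols, total RNA was extracted with Trizol and labelled as biotinylated cRNA. GEO's platform table named 1 gene for 20393 probe sets, several for 691 and none for 1606, and 20364 symbols were updated through Entrez identifiers with a RefSeq table of assembly GRCm38.p6. No member's symbol changed.

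Values were taken to log2(intensity + 16) and not normalized again. Each gene was read from its brightest single-gene probe set, and the 40% of genes with the lowest mean level were left out. Lines, steps and splines (3 degrees of freedom) were fitted over 13 arrays with limma 3.58.1 in R 4.3.3 (eBayes with an intensity trend, two-sided, Benjamini-Hochberg over 7436 genes, threshold 0.05). The fits were tested on simulated data. Fold changes are fitted changes over 4 h. Precision is limited by the number of arrays.

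The members and lists were chosen with earlier results of these data known. Named were, per set, the 6 largest rises and falls, the 3 largest steps in each direction, the 3 brightest and 3 dimmest members, fixed reference genes and related copies, and up to 3 genes per direction of each other list. Mrpl42, Mrpl45, Mrpl58, Mrps36, Mrps18a and Mrps18c were named after their values were seen. So were Rps24, Rps20, Rpl35, Rps10, Rpl27, Eif3a, Eif3d, Eif4ebp1 and the smaller downward steps. Alternatives changed the filter, pseudocount, normalization, probe sets, moderation, array weights, time scale and arrays used.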

Additional observations from a re-analysis of the deposited data

How the results depend on the processing

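No paired analysis was possible because each time had 1 array and the groups share no replicates to pair. The direction of the set difference held under every alternative run. The mitochondrial median slope exceeded the cytosolic one by 0.0351 log2 units per hour, by 0.0279 with the mean of all probe sets, 0.0289 without probe sets ending in _x_at or _s_at, 0.0444 from 80 to 240 min, 0.106 from 0 to 60 min and 0.0497 with the step as a block, and by 0.0313 to 0.0396 when 1 array was left out. The 36 mitochondrial and 6 cytosolic risers became 0 and 0 from 80 to 240 min, from 0 to 60 min and with the step as a block, where 33 mitochondrial and 4 cytosolic members rose at limma's unadjusted p below 0.05 (15.3% of all genes). The stretches hold fewer arrays and the block fit has an added term, and the reason for the lost calls was not tested. Cytosolic risers numbered 3 with median centring of the arrays and 13 with array weights (26.4% of all genes), whose estimation stopped before convergence. Cytosolic upward steps went from 10 to 6 with median centring and to 6 without the intensity trend. Cytosolic splines went from 3 to 5 with the mean of all probe sets, and array weights gave 10 cytosolic and 47 mitochondrial splines against 3 and 27, with 54.9% of all genes called against 24.9%.

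With 1 array left out, cytosolic risers ranged from 4 to 7, mitochondrial risers from 29 to 38, cytosolic upward steps from 6 to 11 (6 without the 40 min array), mitochondrial upward steps from 23 to 37, cytosolic splines from 1 to 3 (1 without the untreated array) and mitochondrial splines from 22 to 32. Among named genes called by the line, slopes that changed sign from 0 to 60 min were those of Ddit4l (-0.107), Eif3f (-0.0258), Esrra (-0.207), Gabpb1 (0.171), Letm1 (-0.0321), Mrpl1 (0.136), Myc (0.0945) and Pprc1 (0.0452). From 80 to 240 min Esrra had -0.000534 and Pprc1 0.00624, and with the step as a block -0.0164 and 0.00924. Of 25 named genes that the line did not call, slopes had the other sign in 10 from 0 to 60 min, 9 from 80 to 240 min and 9 with the step as a block. The step of Mrpl38 became 0.0710 without probe sets ending in _x_at or _s_at. The cause of these changes was not tested. Updated symbols changed no member, so that alternative gave no separate value. The level splits, the fit of single probe sets and the slopes from 0 to 40 min were chosen after seeing the data.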

Other observations

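The 18S rRNA control probe sets, which read ribosomal RNA and are not members of either set, were high in 1 array. The 3' control had an intensity of 959 at 60 min and 346 to 552 (median 449) in the other 12 arrays, and the 5' control had 442 at 60 min and 147 to 270.4 in the others. The mitochondrial members had a median deviation of -0.0061 in that array, above -0.075 at 40 min and -0.053 at 80 min. The cytosolic median at 60 min was 0.0021.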
